A study of Mus musculus with 12 samples.

Results

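The transcripts of the nuclear receptor gene Ppara and of 8 genes that it is known to induce in liver, Cyp4a10, Cyp4a14, Acot1, Vnn1, Ehhadh, Acaa1b, Creb3l3 and Angptl4, were followed across 12 mouse livers with and without hepatocyte Phgdh. The 9 genes were chosen by symbol, and their probes were found through the RefSeq accession that the array gives for each probe. They had 13 probes among 39429 on the array, 3 each for Ppara and Cyp4a10 and 1 for every other gene. All 13 probes were well above background on all 12 arrays, and all 9 genes were therefore among the 16916 genes tested.

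Pparα is a receptor for fatty acids and their derivatives that binds DNA as a heterodimer with the retinoid X receptor, at direct repeats of a short motif with 1 base between. In hepatocytes it turns on fatty acid uptake and activation, oxidation in mitochondria, peroxisomes and microsomes, and the making of ketone bodies, and it is best known for its role in fasting. The genes described here stand at several points of that program: the receptor itself, the microsomal ω-hydroxylases Cyp4a10 and Cyp4a14, the peroxisomal enzymes Ehhadh and Acaa1b, the acyl-CoA thioesterase Acot1, the pantetheinase Vnn1, the transcription factor Creb3l3 and the secreted lipase inhibitor Angptl4.

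The livers came from male C57BL/6 mice that were 30 weeks old and homozygous for a floxed Phgdh allele, the gene of the first enzyme of serine synthesis from glucose. The 6 LKO mice also carried Cre under the albumin promoter, which acts in hepatocytes, so other cells of the liver keep Phgdh. The 6 Floxed mice were littermates without Cre. Each liver was hybridized to 1 single-color Agilent array, and all values below are log2 of the processed intensity after quantile normalization, with 1 unit equal to a 2-fold difference in signal and no meaning when set against another probe. Differences are LKO minus Floxed livers, as limma's estimate ± SE over 6 and 6 livers, and those within slide 2 are plain differences of means.

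The arrays lay on 3 slides of 4. Slide 1 held Floxed 1 to 4, slide 2 held Floxed 5 and 6 with LKO 1 and 2, and slide 3 held LKO 3 to 6, so that genotype and slide can be separated only within slide 2. The Phgdh probe read 4.81, 5.17 and 5.5 in Floxed livers (lowest, median and highest) and 4.23, 4.57 and 5.30 in LKO livers, a fall of 0.48 ± 0.18 (SE, limma, Benjamini-Hochberg adjusted p = 0.451) that was called at an unadjusted p of 0.0179. The groups overlapped, and the difference within slide 2 was -0.05. The Phgdh probe was dim, and whether it lies in the deleted part of the gene is not known. All 12 hepatocyte markers listed (among them Alb, Ttr and Hnf4a) were well above background in every liver, and their mean level was 16.63 to 16.81 in Floxed and 16.58 to 16.74 in LKO livers. In whole liver, fewer cells of a type and less RNA per cell cannot be told apart.

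Promoter windows, from 250 bases before to 50 after a start site (RefSeq, GRCm38.p6), were at hand for 5 of the 9 genes, in 6 windows of which Creb3l3 had 2. They were searched on both strands for the hexamer AGGTCA, one arm of the binding site, and for its direct repeat with 1 base between, AGGTCANAGGTCA, in which N is any base and 12 bases are fixed. The closest stretch in 1 of the 2 Creb3l3 windows is shown because it came nearest to the repeat. Those of Ehhadh, Acaa1b and Acot1 are shown because each gene belonged to a correlated pair described below. Ehhadh and Acaa1b were correlated with each other, and Acot1 with Vnn1 alone. Capitals mark the 13 bases closest to the repeat.
Creb3l3 (chr10:81092748-81092840, minus strand): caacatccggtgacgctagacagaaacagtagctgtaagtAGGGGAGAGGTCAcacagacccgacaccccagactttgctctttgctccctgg
Ehhadh (chr16:21787855-21787947, minus strand): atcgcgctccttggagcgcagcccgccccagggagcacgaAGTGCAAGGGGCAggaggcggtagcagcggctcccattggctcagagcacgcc
Acaa1b (chr9:119157224-119157316, minus strand): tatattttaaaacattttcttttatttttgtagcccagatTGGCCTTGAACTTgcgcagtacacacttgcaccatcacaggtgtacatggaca
Acot1 (chr12:84009252-84009339, plus strand): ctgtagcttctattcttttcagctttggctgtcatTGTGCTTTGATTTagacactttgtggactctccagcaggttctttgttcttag
The Creb3l3 stretch shown differed from the repeat at 2 of its 12 fixed bases and holds 1 intact hexamer. The other Creb3l3 window came no closer than 4 different bases and held no intact hexamer. A match with at most 2 different bases was found in 3.86% of all 32851 promoter windows, and an intact hexamer in 16.3%. These shares are per window, whereas the Creb3l3 stretch was the closest in 6 windows. The other 3 stretches shown each differed at 4 fixed bases, and 79.8% of all windows hold a stretch at least that close. In Acaa1b and Acot1 the capitals run on the opposite strand to the repeat. An exact repeat was present in 0.0396% of all windows and in no window of the 5 genes. These are matches of letters only.

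Ppara mRNA did not pass the test, and its estimate lay on the lower side in LKO livers. The brightest probe read 12.99, 13.16 and 13.79 in Floxed livers (lowest, median and highest) and 12.41, 13.08 and 13.59 in LKO livers. LKO 5 had the lowest value of all 12 livers, Floxed 5 the highest, and the other LKO livers lay within the Floxed range. The difference was -0.16 ± 0.20 (SE), with a 95% interval of -0.59 to 0.26 (limma, Benjamini-Hochberg adjusted p = 0.949, two-sided exact permutation p = 0.442). The second probe gave -0.25 ± 0.13, with 0 of 6 LKO livers above the Floxed median (limma, Benjamini-Hochberg adjusted p = 0.683, two-sided exact permutation p = 0.0952), and the third gave -0.07 ± 0.15. Within slide 2, the 3 probes differed by -0.60, -0.44 and -0.50, and both Floxed livers there were above every Floxed liver of slide 1 for the brightest probe. On those 4 arrays alone Ppara was called lower, at an unadjusted limma p of 0.012, and with slide as a fixed block over all 12 arrays the p behind the same difference was 0.0807. The 4 LKO livers of slide 3 lay 0.05 above the 4 Floxed livers of slide 1. Over all slides the difference was -0.02 without LKO 5, -0.06 without Floxed 5, and -0.26 without LKO 6.

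Cyp4a10 and Cyp4a14, cytochrome P450 enzymes of a gene cluster that add a hydroxyl group to the far end of fatty acids, had higher means in LKO livers without passing the test. Cyp4a10 read 13.59, 13.89 and 14.86 in Floxed livers and 13.83, 14.33 and 14.53 in LKO livers. Although 5 of 6 LKO livers were above the Floxed median, the highest value belonged to Floxed 6. The difference was 0.27 ± 0.20 (95% interval -0.16 to 0.71, limma, Benjamini-Hochberg adjusted p = 0.857, two-sided exact permutation p = 0.245), and the other 2 probes gave 0.20 ± 0.19 and 0.10 ± 0.19. Within slide 2 the sign was opposite for all 3 probes, at -0.15, -0.15 and -0.38. Leaving out Floxed 6 brought the difference of the brightest probe to 0.45 and its unadjusted p to 0.00891. Floxed 6 was also highest for the close relatives Cyp4a31 (14.52) and Cyp4a32 (12.57), whose differences were 0.26 and 0.21, and to what extent these probes read each other's transcripts was not tested.

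Cyp4a14 varied most between livers among the 9 genes. It read 13.73, 14.27 and 14.60 in Floxed livers and 13.77, 14.63 and 15.48 in LKO livers. LKO 4, LKO 1 and LKO 5 were above every Floxed liver, whereas LKO 2 was lower than all but Floxed 1. The difference was 0.43 ± 0.26 (95% interval -0.14 to 0.997, limma, Benjamini-Hochberg adjusted p = 0.773, two-sided exact permutation p = 0.182) and 0.20 within slide 2. Its standard deviation was 0.31 in Floxed and 0.65 in LKO livers. Without LKO 2 the difference was 0.61, with an unadjusted p of 0.0204, and without LKO 4 it was 0.27, with one of 0.293.

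Of the 2 peroxisomal enzymes, Acaa1b, a thiolase of the last step of the β-oxidation cycle, was the only one of the 9 genes called at an unadjusted limma p below 0.05. It read 15.08, 15.30 and 15.80 in Floxed livers and 15.36, 15.77 and 16.05 in LKO livers. All 6 LKO livers exceeded the Floxed median, but 4 of them lay within the Floxed range, whose highest liver was Floxed 2. The difference was 0.31 ± 0.14, or 1.24-fold, with a 95% interval of 0.01 to 0.62 (limma, Benjamini-Hochberg adjusted p = 0.588, two-sided exact permutation p = 0.0714). The unadjusted limma p behind the call was 0.0459. It rose to 0.0918 with arrays scaled to their 75th percentile, and to between 0.0503 and 0.109 when any single liver other than Floxed 2, LKO 2 or LKO 3 was left out. Within slide 2 the difference was 0.19, and its paralog Acaa1a differed by -0.05.

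Ehhadh, the bifunctional enzyme of the middle steps of the same cycle, read 11.75, 12.06 and 12.35 in Floxed livers and 11.95, 12.35 and 12.70 in LKO livers. LKO 4, LKO 5 and LKO 1 were above all Floxed livers, and Floxed 1 was the lowest of the 12. The difference was 0.25 ± 0.14 (95% interval -0.05 to 0.54, limma, Benjamini-Hochberg adjusted p = 0.727, two-sided exact permutation p = 0.119). Within slide 2 it was -0.02. Without LKO 2 it was 0.33, with an unadjusted p of 0.0276, and without LKO 4 it was 0.18, with one of 0.212.

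Acot1, a cytosolic thioesterase that releases free fatty acids from their CoA esters, differed by 0.43 ± 0.22 (95% interval -0.04 to 0.90, limma, Benjamini-Hochberg adjusted p = 0.665, two-sided exact permutation p = 0.106). It read 11.23, 11.52 and 12.40 in Floxed livers and 11.41, 12.08 and 12.45 in LKO livers. Floxed 5 lay with the highest LKO livers and LKO 3 with the low Floxed livers. Without Floxed 5 the difference was 0.58 with an unadjusted limma p of 0.00832, and without LKO 3 it was 0.55 with one of 0.0185. Within slide 2 it was 0.27.

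Vnn1, which frees cysteamine from pantetheine, read 9.55, 10.22 and 10.40 in Floxed livers and 9.95, 10.38 and 10.95 in LKO livers. Both ends of the range were single livers, Floxed 1 and LKO 4. The other 10 lay between 9.95 and 10.40. The difference was 0.24 ± 0.17 (95% interval -0.13 to 0.61, limma, Benjamini-Hochberg adjusted p = 0.842, two-sided exact permutation p = 0.260) and 0.06 within slide 2. It was 0.12 without Floxed 1 and also 0.12 without LKO 4.

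The 2 targets with regulatory or secreted products did not share the positive estimates. Creb3l3, a membrane-bound transcription factor of the hepatocyte that works with Pparα, read 14.25, 14.49 and 14.82 in Floxed livers and 14.20, 14.47 and 14.65 in LKO livers. It had the smallest difference and the tightest interval of the 9 genes, at -0.05 ± 0.11 (95% interval -0.28 to 0.18, limma, Benjamini-Hochberg adjusted p = 0.975, two-sided exact permutation p = 0.664). Angptl4, an inhibitor of lipoprotein lipase, read 12.77, 13.72 and 14.46 in Floxed livers and 13.09, 13.46 and 13.85 in LKO livers. The Floxed livers enclosed all LKO livers, and their standard deviation was 0.64 against 0.25. The difference was -0.20 ± 0.25 (95% interval -0.74 to 0.35, limma, Benjamini-Hochberg adjusted p = 0.950, two-sided exact permutation p = 0.5), and it was -0.37 within slide 2. Leaving out 1 liver moved it between -0.04, without Floxed 5, and -0.38, without Floxed 2.

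**Figure D1:**
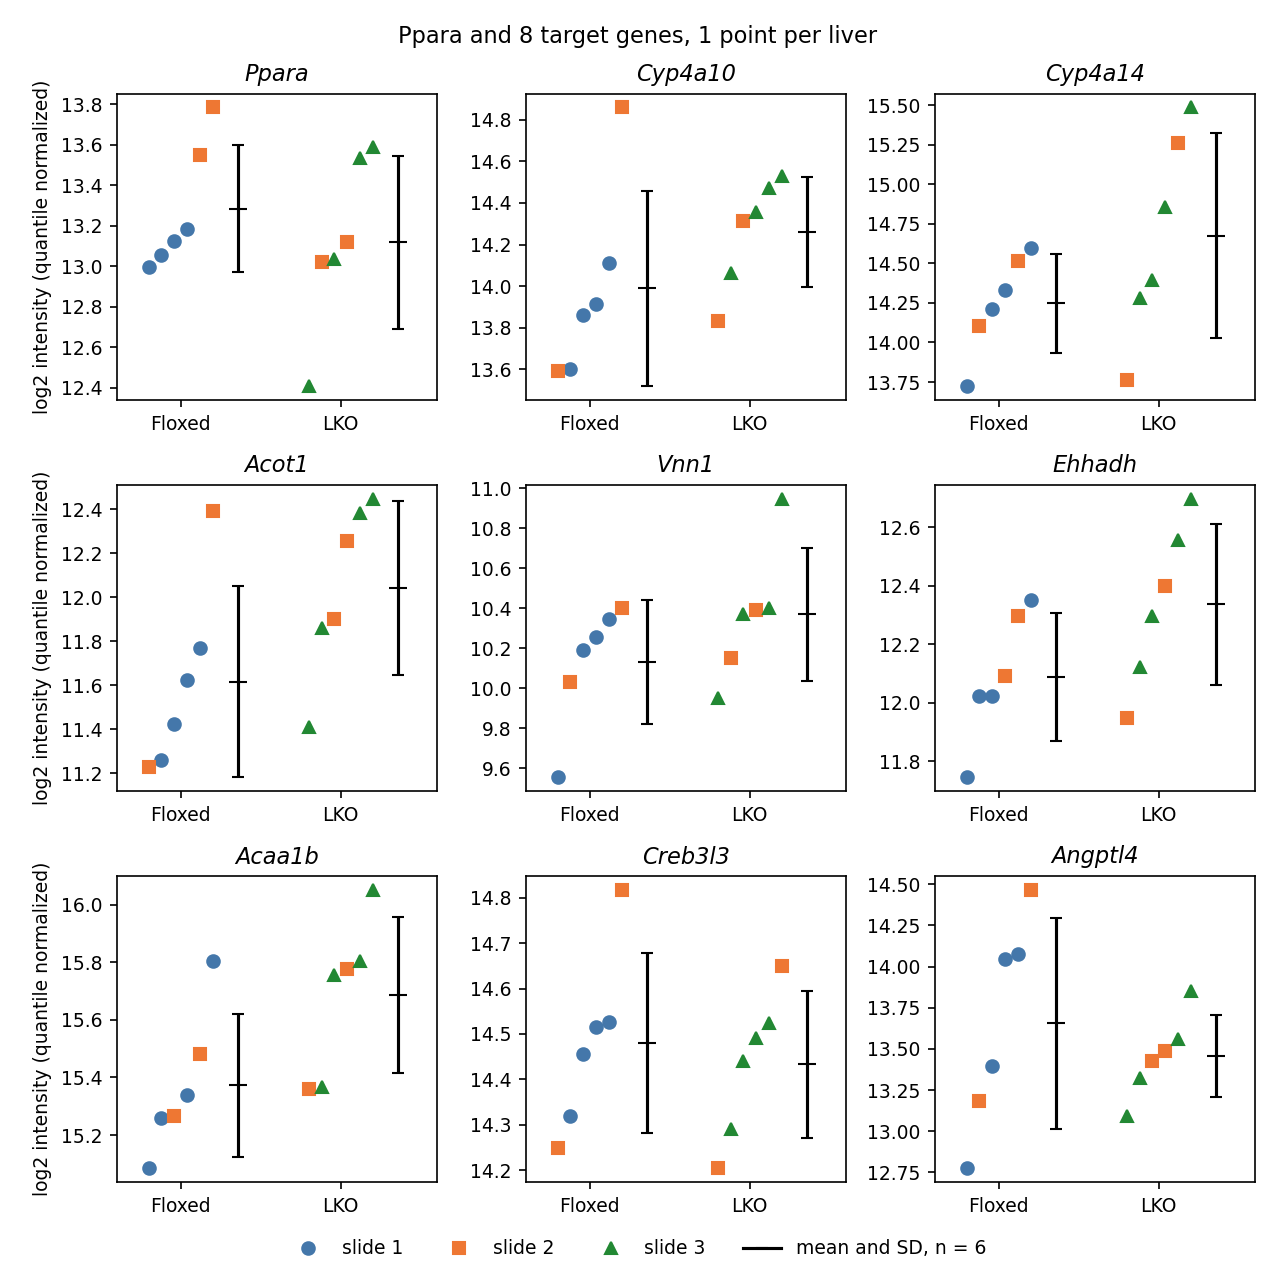
Log2 processed intensity after quantile normalization (vertical axis, a separate scale for each gene) in 6 Floxed and 6 LKO livers, with symbols by slide and the mean ± SD beside each genotype. The genotypes overlap for all 9 genes, as for all but 50 of the 16895 tested genes with a value on every array. In the Acaa1b panel 4 of 6 LKO livers lie within the Floxed range.

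Across the 9 genes, 6 had higher and 3 lower means in LKO livers, and the median difference was 0.25, against -0.0035 over all genes tested, of which 48.8% were higher. The genotypes overlapped for all 9, as they did for all but 50 of the 16895 tested genes with a value on every array. At an unadjusted limma p below 0.05, 8.35% of all 16916 genes were called, 4.92% higher and 3.43% lower in LKO livers, so 1 of 9 was near this background. None of the genes tested passed a Benjamini-Hochberg adjusted p of 0.05 in limma, where 1413 had an unadjusted p below 0.05. The smallest adjusted p was 0.132. Within slide 2, which compares 2 LKO with 2 Floxed livers, 4 of the 9 were higher, with a median of -0.02 against 0.02 over all genes. The 6 genes with positive estimates were the 2 cytochromes, the 2 peroxisomal enzymes, Acot1 and Vnn1, and for all 6 the difference within slide 2 was smaller than that over all livers.

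**Figure D2:**
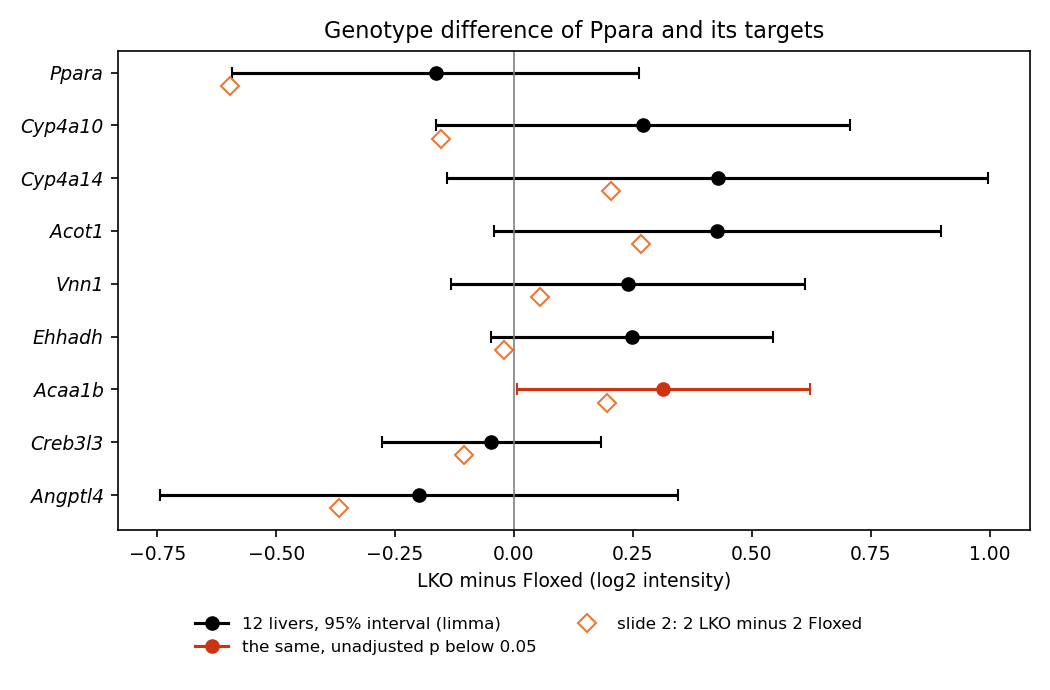
Difference between LKO and Floxed livers in log2 intensity for Ppara and its 8 targets, as limma's estimate over 12 livers with its 95% interval (circles), and as the plain difference of 2 LKO and 2 Floxed livers on slide 2 (diamonds). The interval excludes 0 for Acaa1b alone, from 0.01 to 0.62, and every diamond lies to the left of its circle.

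Livers of the same genotype differed in these genes more than in most. The standard deviation within genotype was 0.51 for Cyp4a14 and 0.49 for Angptl4, larger than that of 93.9% and 93.0% of all genes tested. Acot1 (88.3%), Cyp4a10 (84.9%), Ppara (84.0%) and Vnn1 (76.0%) were also above most genes. Acaa1b (61.3%) and Ehhadh (58.3%) were close to the median, and Creb3l3 (35.3%) varied less. From the lowest to the highest liver, Cyp4a14 spanned 3.39-fold and Angptl4 3.23-fold.

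A subset of the targets rose and fell together from liver to liver. Of the 36 pairs among the 9 genes, 7 passed a Benjamini-Hochberg adjusted p of 0.05 over all pairs for Pearson's r (permutation test with 100000 resamples, two-sided), and these 7 joined Cyp4a14, Ehhadh, Acaa1b and Vnn1 with each other and Vnn1 with Acot1. The values of both genes in a liver come from the same array and normalization. The closest pair was Cyp4a14 and Ehhadh, with r = 0.919 (permutation p = 1e-05, the smallest that the resamples can give, adjusted p = 0.00036) and Spearman's rho = 0.942 (permutation p = 3e-05, adjusted p = 0.00108). Without LKO 1 and LKO 4, the livers farthest from the Cyp4a14 median, r was 0.936. It was 0.940 among Floxed and 0.916 among LKO livers, and 0.927 for deviations from the mean of each genotype on each slide (permutation test, adjusted p = 0.0554).

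Acot1 and Vnn1 had r = 0.780 (permutation p = 0.00046, adjusted p = 0.00828), rho = 0.881 (permutation p = 0.00031, adjusted p = 0.00558) and r = 0.810 without Floxed 6 and LKO 5. It was 0.708 in Floxed, 0.773 in LKO livers and 0.751 for deviations within genotype and slide (permutation test, adjusted p = 0.152). The other 5 pairs had r between 0.718 and 0.803 (permutation test, adjusted p of 0.0209 to 0.0284) and rho between 0.483 and 0.732 (adjusted p of 0.0763 to 0.229), and they rested on few livers. Without the 2 livers farthest from the median their r fell to between 0.301 and 0.586, and no adjusted permutation p was below 0.05. These r pool both genotypes, and for deviations from the genotype means the adjusted permutation p of the 5 pairs was 0.121 to 0.134, that of Acot1 and Vnn1 0.121 and that of Cyp4a14 and Ehhadh 0.0112. For deviations within genotype and slide, that of the 5 pairs was 0.152 to 0.2. Leaving out LKO 4 alone reduced the 7 pairs to 1, leaving out Floxed 1 to 2, and leaving out LKO 5 to 3.

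LKO 4 and Floxed 1 formed the ends of this pattern. LKO 4 was the highest of 12 livers for Cyp4a14, Vnn1, Ehhadh and Acaa1b, and Floxed 1 was the lowest for the same 4 genes. Over the 6 targets with positive estimates, the mean deviation from each gene's average was 0.62 in LKO 4, 0.34 in LKO 5, 0.33 in LKO 1, 0.06 in LKO 6, -0.13 in LKO 3 and -0.24 in LKO 2. In Floxed livers it ran from -0.53 in Floxed 1 to 0.00 in Floxed 6. LKO 2 and LKO 3 lay within this Floxed range. These 6 genes were taken for their higher means in LKO livers, which sets part of this order. Over all 8 targets the mean deviation was 0.44 in LKO 4, 0.20 in LKO 1, 0.17 in LKO 5 and 0.08 in LKO 6, against 0.09 in Floxed 5, the highest Floxed liver, so that LKO 2, LKO 3 and LKO 6 lay within the Floxed range.

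**Figure D3:**
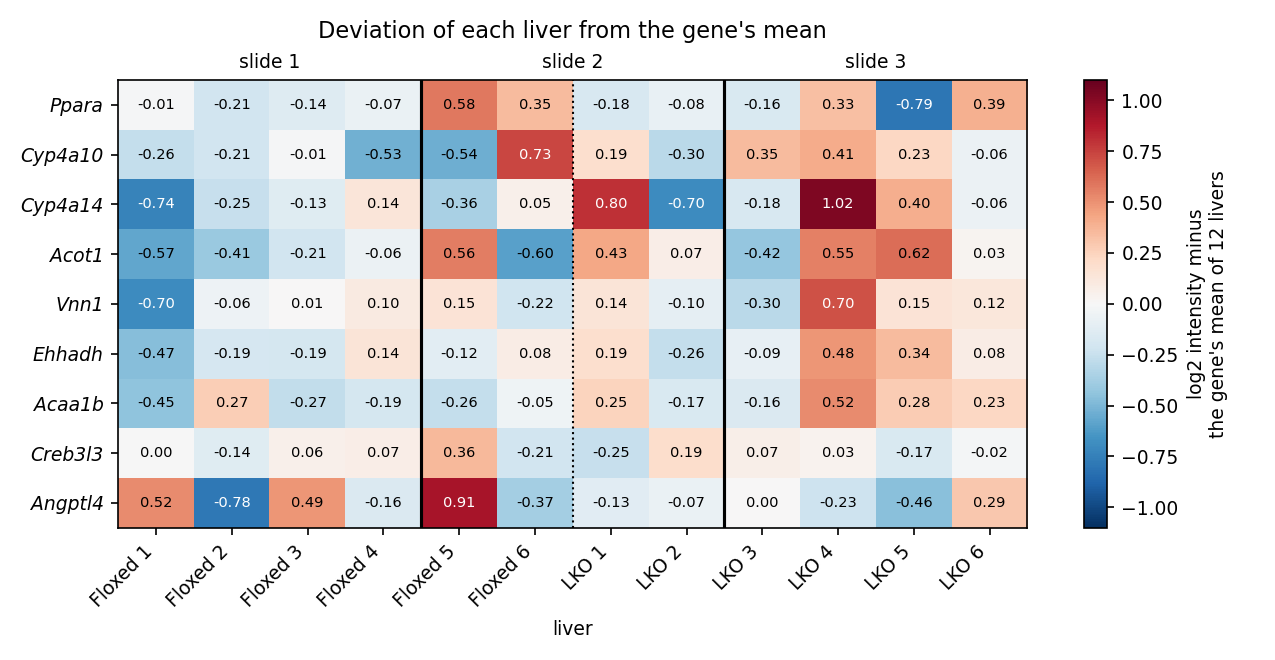
Log2 intensity of each liver minus the gene's mean over 12 livers (color and printed value), with livers ordered by genotype and slide, solid lines between slides and a dotted line between the genotypes on slide 2. Cyp4a14, Vnn1, Ehhadh and Acaa1b are lowest in Floxed 1 and highest in LKO 4, whereas Angptl4 and Ppara are highest in Floxed 5.

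For Ppara mRNA itself no correlation with a target passed the test. Its r with Cyp4a14 was -0.08 (rho = -0.15, permutation p = 0.797 and 0.636), with Ehhadh -0.05 (rho = -0.07, permutation p = 0.881 and 0.822) and with Acaa1b -0.11 (rho = -0.33, permutation p = 0.742 and 0.298). Without Floxed 5 and LKO 5, the livers farthest from its median, these r were 0.29, 0.50 and 0.37, and for deviations within genotype and slide they were -0.04, -0.11 and 0.01. All 8 of its pairs had adjusted permutation p of 0.239 or more for Pearson's r. Its highest r were with Angptl4 (0.483, rho = 0.497, permutation p = 0.113 and 0.105) and Creb3l3 (0.437, rho = 0.343, permutation p = 0.155 and 0.278), and without Floxed 5 and LKO 5 these were 0.05 and -0.10. The 2 lowest r of the 36 pairs were those of Acaa1b with Angptl4 (-0.624, rho = -0.769, adjusted permutation p = 0.112 and 0.0631) and of Cyp4a10 with Creb3l3 (-0.610, rho = -0.601, adjusted permutation p = 0.112 and 0.193), and neither passed.

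**Figure D4:**
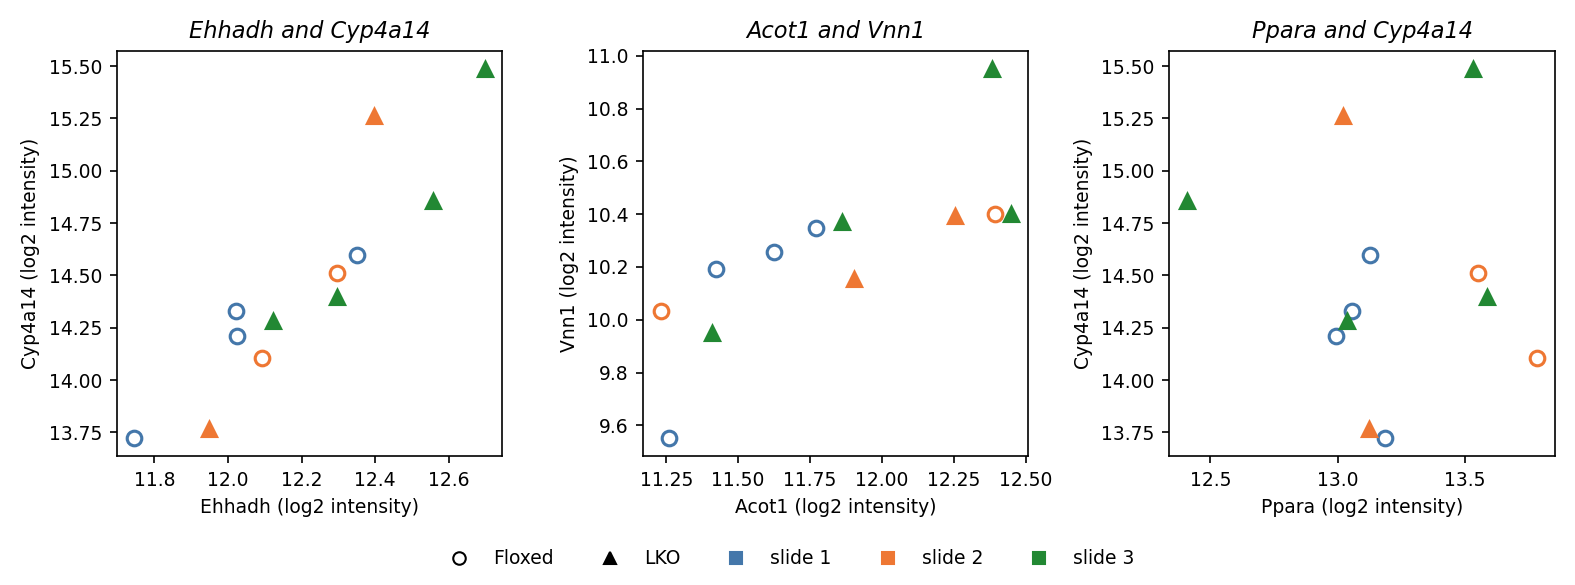
Log2 intensities of 3 pairs of genes across 12 livers, with open circles for Floxed, filled triangles for LKO livers and colors for slides. Cyp4a14 rises with Ehhadh (r = 0.919) and Vnn1 with Acot1 (r = 0.780), while the points for Ppara and Cyp4a14 (r = -0.08) are scattered.

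Among all tested genes with a symbol, those whose levels over the 12 livers were most like Cyp4a14 by Pearson's r were Ehhadh (0.919), the fatty acid transporter Cd36 (0.908), Fam160a2 (0.876), Mospd2 (0.873) and Tmem70 (0.869). Acaa1b stood at rank 52 and Vnn1 at rank 56 of this order. Those most like Ppara were the RNA-editing enzyme gene Adarb1 (0.916), the xylulokinase gene Xylb (0.914), Nhlrc2 (0.909), the hypoxia-inducible factor gene Epas1 (0.903) and Ing1 (0.878). None of these 9 other genes was called between genotypes, with unadjusted limma p of 0.119 or more. These likenesses are descriptions over 12 livers that share a normalization.

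Of 130 further genes listed for the Pparα pathway, 126 were tested, and 8 were called (6.35%, against 8.35% of all genes). Pdk4, Aqp7, G0s2, Apoa4, Acot2, Fabp2 and Plin5 were higher and Ep300 was lower in LKO livers, with adjusted p of at least 0.274 (limma, Benjamini-Hochberg). Over the 126 tested, 91 were higher (72.2%, against 48.8% of all genes), and the median difference was 0.07. Within slide 2 the lists differed in sign. The mean difference there was -0.18 for receptors and coregulators, -0.03 for the microsomal, -0.02 for the peroxisomal and -0.06 for the lipid droplet list. It was 0.16 for mitochondrial oxidation, 0.05 for acyl-CoA metabolism, 0.145 for secreted proteins and 0.02 for other hepatic targets.

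Among receptors and coregulators, 6 of 19 were higher and 13 lower, with a median of -0.08. Ep300, a histone acetyltransferase, fell by 0.49 ± 0.13 (SE, limma, adjusted p = 0.307), from 6.29, 6.82 and 6.94 in Floxed livers (lowest, median and highest) to 6.00, 6.33 and 6.57 in LKO livers, with -0.41 within slide 2. Rxra, the partner of Pparα, differed by -0.10, Ppargc1a, a coactivator, by -0.17, Ppard by 0.44 and Pparg by 0.16. Lpin1, which acts both as a phosphatidate phosphatase and as a coactivator, differed by -0.45 ± 0.53 and by -2.36 within slide 2.

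In the microsomal list, 5 of 8 were higher and 3 lower with no call and a median of 0.16. The NADPH reductase Por, which supplies electrons to all microsomal cytochromes P450, differed by -0.24 ± 0.22, and the fatty aldehyde dehydrogenase Aldh3a2 by 0.28. In the peroxisomal list 12 of 17 were higher with no call and a median of 0.07. Hsd17b4, which carries out the same steps as Ehhadh, differed by 0.13.

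Of 23 genes of mitochondrial oxidation and ketogenesis, 20 were higher, most of them by little, and the median was 0.07. Only Pdk4, a kinase that shuts down pyruvate dehydrogenase, was called. It read 7.13, 7.39 and 8.13 in Floxed livers and 7.80, 8.56 and 9.20 in LKO livers, a difference of 1.05 ± 0.27 (limma, adjusted p = 0.280) that was 1.87 within slide 2. Cpt1a, which brings fatty acids into mitochondria, differed by -0.01.

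Of 16 genes of acyl-CoA metabolism, binding and uptake, 14 were higher and 2 were called, with a median of 0.11. Fabp2, a fatty acid-binding protein, differed by 0.47 ± 0.19 (limma, adjusted p = 0.501, and 0.29 within slide 2), and Acot2, a mitochondrial relative of Acot1, by 0.49 ± 0.22 (limma, adjusted p = 0.584, and 0.15 within slide 2). The Acot2 probe was dim, at 4.48, 5.37 and 5.735 in Floxed livers and 5.39, 5.61 and 6.31 in LKO livers (lowest, median and highest). Its lowest value was that of Floxed 1. Sequences of Acot1 and Acot2 are close, so their probes are uncertain in this respect. Cd36 differed by 0.30.

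In the list of lipid droplets and glycerol, 11 of 14 were higher and 3 were called, with a median of 0.12. Aqp7, a glycerol channel with a dim probe, read 4.63, 5.25 and 5.63 in Floxed livers and 5.49, 6.22 and 6.74 in LKO livers. The difference was 0.96 ± 0.24 (limma, adjusted p = 0.274), although within slide 2 it was 0.09. G0s2, an inhibitor of the lipase Pnpla2, differed by 0.73 ± 0.29 (limma, adjusted p = 0.501, and 0.47 within slide 2) and the droplet protein Plin5 by 0.32 ± 0.14 (limma, adjusted p = 0.564, and 0.34 within slide 2). The droplet proteins Cidea (0.85 ± 1.15) and Cidec (0.80 ± 0.58) had large differences with larger spread and were not called. Cidea was at 6.66 in Floxed 1, 6.63 in LKO 2 and 6.35 in LKO 3, and between 8.83 and 12.87 in the other livers, so that its low livers were of both genotypes.

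In the secreted proteins, 6 of 11 were higher with a median of 0.05. Apoa2, counted among the 11, read 18.86 on every array after normalization and so could show no difference. Apoa4 differed by 0.69 ± 0.30 (limma, adjusted p = 0.564, and 0.27 within slide 2). The stress-induced cytokine Gdf15 had the largest difference of all 126 at 1.14 ± 0.55 and was not called (limma, adjusted p = 0.622, and 1.33 within slide 2). Fgf21, a hormone under Pparα control, differed by 0.27, Apoa1 by -0.25 ± 0.13 and Lpl by -0.26 ± 0.19. Within slide 2 Apoa1 differed by -0.15 and Lpl by 0.22. Of 18 other hepatic targets, 17 were higher and none was called, with a median of 0.18. Within slide 2 the mean difference of this list was 0.02, and its genes ran from -0.65 (Me1) to 1.24 (Gadd45b).

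**Figure D5:**
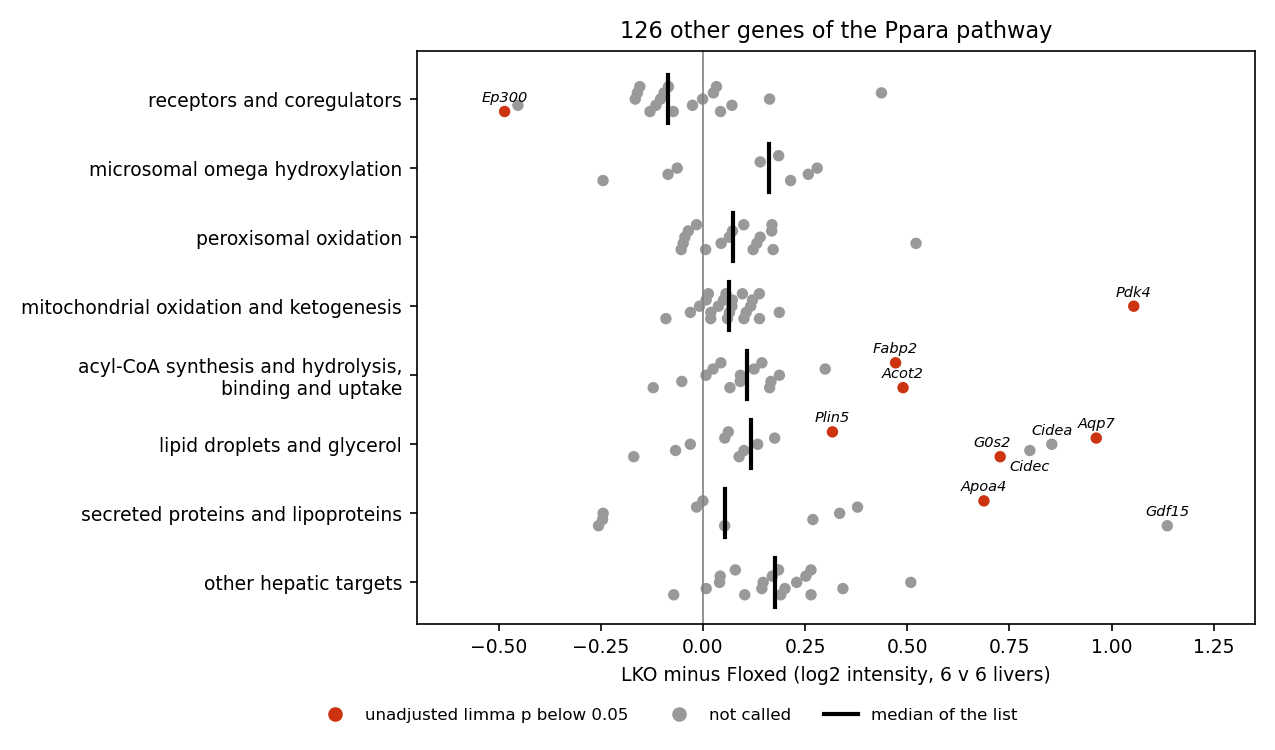
Difference between 6 LKO and 6 Floxed livers in log2 intensity for 126 other pathway genes in 8 lists, with genes at an unadjusted limma p below 0.05 in red and the median of each list as a black bar. Medians run from -0.08 for receptors and coregulators to 0.18 for other hepatic targets, and Ep300 alone is called to the left of 0.

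Some marker lists were extreme in LKO 4 or Floxed 1, the livers at the ends of the pattern of the targets, and their part in it was not tested. Of 10 lymphocyte and 10 macrophage markers listed, 6 and 8 were tested. LKO 4, highest for 4 targets, had the lowest mean deviation over the 6 lymphocyte markers (-0.304) and over the 8 macrophage markers (-0.76). Floxed 4 was almost as low over the lymphocyte markers (-0.298), although its mean deviation over the 8 targets was -0.06. LKO 1 and LKO 5, next highest over the targets, were at -0.105 and -0.122 for lymphocyte and -0.10 and -0.20 for macrophage markers. The macrophage list holds Marco, whose standard deviation within genotype was 1.63. Floxed 1, lowest for the same targets, had the highest over the lymphocyte markers (0.31), whereas the macrophage markers were highest in Floxed 3 (0.85) and at 0.13 in Floxed 1. Over 5 adipocyte markers LKO 4 was highest (0.56) and Floxed 1 lowest (-0.59), and much of this came from Cidec, which also stands in the lipid droplet list and deviated by 1.84 in LKO 4 and -1.67 in Floxed 1. Without Cidec the adipocyte deviation was 0.24 in LKO 4, below Floxed 2 at 0.38, and -0.32 in Floxed 1, still the lowest. The 5 are Cfd, Cidec, Fabp4, Car3 and Lipe, with mean levels of 9.74 to 10.72 in Floxed and 9.77 to 10.89 in LKO livers. These means blend probes of unlike brightness, with Car3 at 17.23 and Lipe at 4.47 on average in Floxed livers. How much of these transcripts came from adipocytes was not tested. The defining adipocyte genes Adipoq, Lep, Retn, Plin1 and Nnat were listed but were not among the genes tested. None of the adipocyte, macrophage or lymphocyte markers was called. All 8 macrophage markers had lower means in LKO livers, with a median difference of -0.10 and mean levels of 10.34 to 11.63 in Floxed and 10.03 to 11.30 in LKO livers. Of the lymphocyte markers 4 of 6 had lower means, with a median of -0.15 and mean levels of 8.44 to 9.05 in Floxed and 8.44 to 8.84 in LKO livers. Hepatocyte markers deviated by -0.13 to 0.10. Of 8 endothelial markers 4 had higher and 4 lower means in LKO livers, with a median difference of 0.02. Pecam1 alone was called, higher by 0.70 from a mean of 5.64 in Floxed livers (limma, adjusted p = 0.274), with 0.04 within slide 2. Of 8 stellate markers none was called.

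Time of day and feeding are known to move Ppara and its targets, and genes of both also differed between livers. Of 10 output genes of the circadian clock listed, such as Dbp and Per2, 7 were tested. Over these 7 the mean deviation was lowest in LKO 2 (-1.56) and LKO 5 (-0.85) and highest in Floxed 5 (0.81). LKO 5 was lowest and Floxed 5 highest for Ppara, while LKO 2, at 13.12, was near its median. Of these 7 genes 6 were lower in LKO livers, Per1 was called, and the difference of the list was -1.45 within slide 2. Of 6 clock genes of the opposite phase listed, 4 were tested. All 4 were higher with none called, by 0.87 on average within slide 2. Over all genes tested, 48.8% were higher. Over 8 tested of 9 listed genes of the fed liver, such as Fasn and Acly, the deviation ran from -0.88 in LKO 2 to 1.14 in LKO 5, with no gene called. All 8 had higher means in LKO livers, with a median difference of 0.19, whereas within slide 2 the list differed by -0.77. Over 8 fasting genes, such as Pck1 and Igfbp1, it ran from -0.27 in Floxed 6 to 0.24 in Floxed 1, again with no gene called. The part of these lists in the values of Ppara and its targets was not tested.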

How the data were processed

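For each array the authors deposited the spot intensity as the scanner software wrote it (Agilent Feature Extraction, 9.5.1.1 in the submitters' processing notes), with flags, and a value table of intensity per probe. The table is linear and equals a quantile normalization of the processed intensity within 0.1 on the log2 scale for 99.98% of values. In the study's methods, values were log2-transformed, quantile-normalized, filtered on detection and tested by limma at p below 0.05.

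From these, control spots (1377 per array) were left out, log2 of the processed intensity was quantile-normalized across the 12 arrays, outlier spots (0.298%) were set missing, and spots were averaged per probe. The filter kept 20403 probes that every array marked as well above background, in place of the detection p-value, which is not in the files used. Symbols came from RefSeq accessions (GRCm38.p6), with 94.3% of 28389 such probes matched. A gene was its brightest kept probe. No coordinates of probes are given, since the array was annotated on another build. Intensity gives no read depth, and the number of arrays limits the precision.

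Genotypes were compared with limma 3.58.1 in R 4.3.3 (lmFit, eBayes, no covariates). Calls were made where the unadjusted p was under 0.05, with Benjamini-Hochberg adjustment over 16916 genes. Each mouse is 1 sample. Pairs were tested by permuting livers, and single genes by the exact permutation test. The fitting was tested on simulated data. Alternatives were the normalization, background correction, the authors' table, filters, outlier spots, the mean over probes, slide and replicate blocks, the methods' own test, thresholds and each array left out. The other probes of Ppara and Cyp4a10, and the adipocyte markers without Cidec, were added after seeing the data.

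The 9 genes, the pathway lists and the marker lists were chosen with earlier results of these data known. Named were all 9 genes with every probe, all called pathway genes, the 5 largest differences in each direction, and the 5 genes most like Ppara and Cyp4a14. Others from the lists are named for their roles in the pathway, after their values were seen. Promoter windows came from RefSeq (GRCm38.p6). Windows for Cyp4a10, Cyp4a14, Vnn1 and Angptl4 were not used here.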

Additional observations from a re-analysis of the deposited data

Results flagged for a closer look

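In groups of 6 livers, a single liver stood far from the rest for 2 of the 15 other pathway genes with large or called differences, and for none of the 9 genes. Ep300 was at 6.29 in Floxed 2 and between 6.78 and 6.94 in the other Floxed livers. Cidea was at 6.66 in Floxed 1 and between 8.83 and 10.07 in the other Floxed livers. With 48 groups examined, 2.4 such livers would arise by chance at this limit.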

How the results depend on the processing

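Acaa1b, called in the comparison as reported, was higher in LKO livers under every alternative run (0.19 to 0.40) but stayed below an unadjusted p of 0.05 in 9 of 24 of them. Of the 9 genes, 0 were called after scaling by the 75th percentile of each array, without a filter on dim probes, with slide as a fixed block, by the methods' plain test, after Benjamini-Hochberg adjustment in limma, or with an absolute log2 difference of at least 1 required, 2 with normexp background, 3 with slide as a random block, and 0 to 3 when 1 liver was left out. The 1 gene called on slide 2 alone was Ppara (-0.60). Cyp4a10 (-0.15) and Ehhadh (-0.0212) were lower in LKO livers with slide as a fixed block and on slide 2 alone, and Creb3l3 ranged from -0.0938 to 0.0197 when 1 liver was left out, the latter without Floxed 5. The cause was not tested.

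Over all genes, 2791 were called without the filter, 317 with slide as a fixed block, 512 on slide 2 alone, 0 after adjustment and 88 with the fold limit, against 1413. Leaving out 1 liver gave 1103 to 1837. After adjustment, 1 gene passed by the methods' t-test, where 1236 were called unadjusted, and 9 passed with slide as a random block, where 1925 were. The correlation within slides that this block estimated was negative (-0.0656). A negative value does not describe an effect shared by a slide. The larger counts with this block, and the 3 of the 9 genes called with it, were therefore not read as further differences. Other pathway genes called, 8 as reported, numbered 3, 5, 0 and 1 with the fixed block, slide 2 alone, adjustment and the fold limit, and 4 to 12 when 1 liver was left out, with 4 without Floxed 1 or LKO 4. Scaling to the 75th percentile shifted the median of all genes by 0.01, and 78.1% of its calls were higher in LKO livers, against 58.9%. On slide 2 alone the share was 43.9%. Of the 36 pairs, 1 passed for deviations from the genotype means, 0 for deviations within genotype and slide, 2 for Spearman's rho, 2 after scaling to the 75th percentile, 2 without the 2 farthest livers, and 1 to 8 when 1 liver was left out.

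Replicate numbers were not taken to pair the livers. The mouse numbers in the labels are adjacent within each replicate number and the controls were littermates, but no label says that a number marks a litter. Same-numbered livers correlated by -0.24 to 0.32 in their deviations, above 0.1 in 3 of 6 pairs, and 2 of 6 matched their own number best. A replicate block called 1428 genes, 1 of the 9 genes (Acot1, unadjusted limma p of 0.0273, in place of Acaa1b, 0.0845) and 11 other pathway genes. The number of arrays limits what small differences could be called.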
